A study of Mus musculus and Meriones unguiculatus with 4 samples.

Results

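Wnt receptors are the membrane proteins through which cells read secreted Wnt ligands. Their genes were examined here in laser-cut enamel knots of the tooth germs of mouse and gerbil. The set was chosen by gene symbol and holds 10 genes: the frizzled genes Fzd1, Fzd2, Fzd3, Fzd6, Fzd7, Fzd8 and Fzd10, the coreceptor genes Lrp5 and Lrp6, and Lgr4, which encodes a receptor for R-spondins. All 10 had a row in the mouse table, 9 had a row under their symbol in the gerbil table, and these 9 were among the 10162 genes measured in both species. The mouse group was wild-type embryos at embryonic day 13 and the gerbil group wild-type Meriones unguiculatus embryos at embryonic day 15, with 2 libraries each and no treatment named. In both species the region was cut by laser microdissection from sections of fixed, frozen germs of the lower jaw. The labels do not say how many animals made up a library, so the spread between the 2 libraries of a species may be technical. The libraries are called by the endings of their column names, PEK and SEK in mouse and E21 and E23 in gerbil. What the endings mean is unexplained in the labels. Should they stand for stages or regions, the SD and SE given here hold that difference too.

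Frizzled proteins are receptors with several membrane passes whose outer domain binds Wnt. In the canonical branch, Wnt joins a frizzled protein to LRP5 or LRP6, which leads to stabilised beta-catenin in the cell, while other branches use frizzled proteins without these coreceptors. LGR4 and its relatives LGR5 and LGR6 bind R-spondins, which keep the ubiquitin ligases RNF43 and ZNRF3 from removing frizzled and LRP proteins from the cell surface. Enamel knots are groups of dental epithelial cells that secrete signals, Wnt ligands among them, and canonical Wnt signalling is required for normal tooth development.

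The values in gerbil came from a table of TPM and those in mouse from a table of FPKM, both read abundances scaled by gene length and library size, which the authors normalized separately. Each library was rescaled to a sum of 1000000 over the 13325 genes matched by symbol, and the rescaled value is called the level. Depth is unknown for mouse and was not analysed for gerbil, so no counting interval is given. Longer genes had higher gerbil to mouse ratios: the median log2 difference was -1.80 in the shortest 1017 genes and 1.43 in the longest 1016. This trend was removed from each library to give corrected log2 values, and log2 differences carry the correction unless said otherwise. Values without the length correction still have each library's median subtracted. On the printed levels, with neither step, the median log2 difference of all genes was 0.62, so a printed level can lean toward gerbil where the centred difference does not. The call rule asked that the lower library of one species exceed the higher library of the other by 2-fold or more on the corrected scale. The rule is a description and not a test, since an exact permutation test of 2 against 2 libraries cannot give a two-sided p below 0.333. The 8 enamel knot markers matched, Shh and Fgf4 among them, summed to levels of 3935 and 2483 in mouse PEK and SEK and 1431 and 1490 in gerbil, with none at 0. Cdkn1a (1565 and 1019 in mouse, 60.0 and 37.1 in gerbil), Wnt10a (744 and 618, 71.6 and 58.0) and Fgf4 (155 and 53.7, 19.5 and 15.8) followed that order. The other matched knot markers did not separate the species in that way. Shh was higher in both gerbil libraries (946 and 609, 963 and 1186), and Fgf9, Wnt10b, Bmp2 and Dkk4 overlapped between the species. Epithelial markers were present in all libraries: the summed level of 8 genes, Krt14, Krt5 and Epcam among them, was 5711 and 7558 in mouse and 8951 and 7643 in gerbil. The 9 mesenchyme markers summed to 947 and 960 in mouse and to 1872 and 3134 in gerbil, with none at 0. The collagen genes, such as Col1a2 (49.9 and 83.1 in mouse, 444 and 778 in gerbil), followed the sum, while Msx1 (270 and 283, 37.6 and 32.3) and Twist1 (183 and 84.6, 31.6 and 22.6) ran the other way. Their part in the receptor differences was not tested, and in such bulk samples a different number of cells of a type and a different amount of RNA per cell cannot be told apart. The 5 endothelial markers summed to 5.61, 16.1 and 1.28 in mouse PEK, mouse SEK and gerbil E21 and to 116 in gerbil E23. The 6 muscle markers summed to 119 and 429 in mouse and to 3.62 and 11.6 in gerbil, where Myod1 was at 0 in both libraries. The 4 blood markers summed to 105, 7.88, 3.84 and 21.1 in PEK, SEK, E21 and E23. Hbb-y held most of the PEK sum (103) and was at 3.38 in SEK and 0 in both gerbil libraries. The other blood markers, Ptprc, Csf1r and C1qa, were lowest in PEK and highest in E23. The part of these lists was not tested.

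Fzd10, Lgr4 and Lrp5 were higher in gerbil than in mouse, and no member was called higher in mouse. Of the 9 members measured in both species, 3 were called higher in gerbil, where 13.3% of all genes were, and 0 were called higher in mouse, where 14.7% of all genes were. The other 6 members were not called either way. Over the 9, the median log2 difference was 0.49, against -0.02 over all genes. With only 9 members, these counts describe the genes one by one and single out nothing about the set. All 9 passed the filter on low values, which asked for a mean of 1 or more across libraries, and Fzd6 could not be matched by symbol. Without centring or length correction, an alternative added after the data were seen, 5 members and 29.7% of all genes were called higher in gerbil, and 0 members and 11.9% of all genes higher in mouse.

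**Figure D1:**
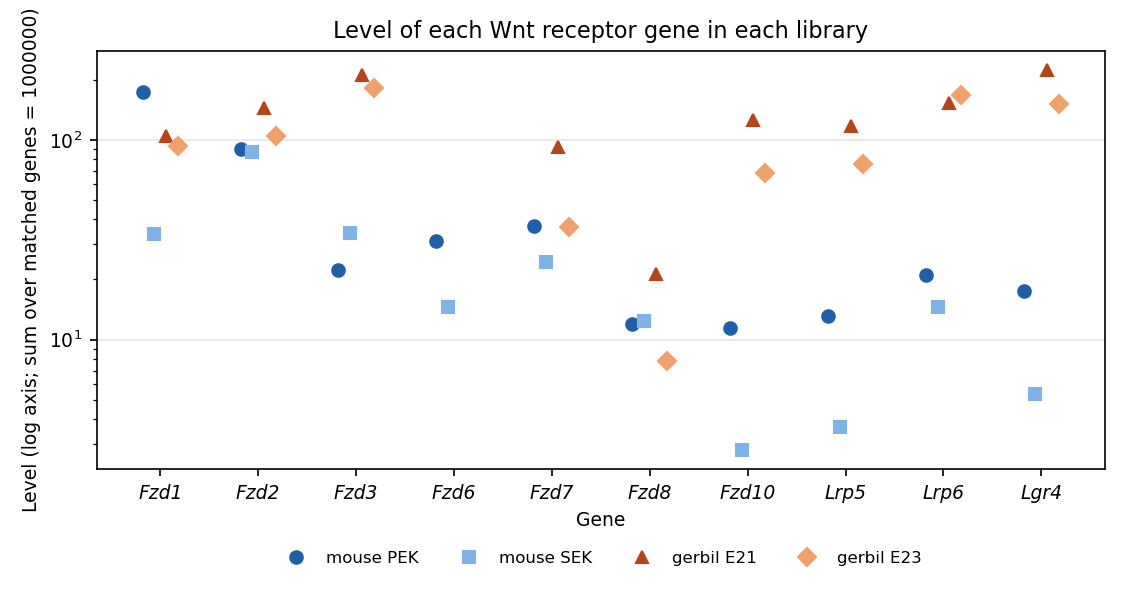
Level of each Wnt receptor gene (horizontal axis) in each of the 4 libraries, on a log axis of levels that sum to 1000000 over matched genes, without length correction; each point is 1 library. Fzd10, Lrp5, Lrp6, Lgr4, Fzd3 and, narrowly, Fzd2 have both gerbil points above both mouse points, and Fzd6 has mouse points only.

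Fzd10 encodes a frizzled receptor linked to canonical Wnt signalling. Its level was 11.5 in mouse PEK, 2.8 in mouse SEK, 126 in gerbil E21 and 68.0 in gerbil E23. Both gerbil libraries stood far above both mouse libraries, and within each species 1 library was clearly the higher. Gerbil averaged 97.1 ± 41.2 and mouse 7.17 ± 6.18 (SD, n = 2 each). The corrected log2 difference was 3.25 ± 0.87 (SE), a 9.52-fold difference, and the lower gerbil library exceeded the higher mouse library by 2.08. This difference stood at the 98.7 percentile of all genes measured. The length trend removed at its 3250 bases was -0.12, and the difference was 3.13 without the correction. In GRCm38 coordinates of the mouse table, Fzd10 (ENSMUSG00000081683) is a single-exon gene at positions 128600844 to 128604093 of chromosome 5.

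Lgr4 encodes the R-spondin receptor that in many epithelia is expressed more broadly than Lgr5. Its level was 17.6 in mouse PEK, 5.32 in mouse SEK, 224 in gerbil E21 and 151 in gerbil E23. The species did not overlap, and the lower gerbil library stood above the higher mouse library by 1.93 on the corrected log2 scale. Gerbil averaged 187 ± 51.5 and mouse 11.4 ± 8.66 (SD, n = 2 each). The log2 difference was 2.68 ± 0.56 (SE), and 3.46 without the length correction. Ranked within a library by level, which carries no length correction, Lgr4 stood at the 92.1 percentile of genes in gerbil E21 and the 86.0 percentile in E23. In mouse it stood at the 38.5 percentile in PEK and the 23.9 percentile in SEK. Lgr4 (ENSMUSG00000050199.L01) spans positions 109917647 to 110014673 of chromosome 2 in the mouse table, with exons in 18 blocks.

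Lrp5 encodes one of the 2 LRP coreceptors of canonical Wnt signalling. Its level was 13.2 in mouse PEK, 3.67 in mouse SEK, 117 in gerbil E21 and 75.7 in gerbil E23. The species did not overlap, and gerbil averaged 96.4 ± 29.3 against 8.44 ± 6.75 for mouse (SD, n = 2 each). The log2 difference was 1.87 ± 0.58 (SE), with a gap of 1.08 between the nearest libraries, just past the 2-fold rule. Lrp6, its close relative, was 21 and 14.6 in mouse PEK and SEK and 152 and 167 in gerbil E21 and E23. Lrp6 levels also separated the species, and its 2 gerbil values differed little. Its log2 difference was 0.91 ± 0.18 (SE), with a gap of 0.66, so it met neither criterion, just outside the rule that Lrp5 just met. Without the length correction Lrp6 was called higher in gerbil (2.48 ± 0.17), and the trend removed at its 9368 bases was 1.57. It was also called when mouse SEK was left out (1.10). Lrp5 (ENSMUSG00000024913.L01) spans positions 3584821 to 3686564 of chromosome 19, and Lrp6 (ENSMUSG00000030201.L01) positions 134446329 to 134566965 of chromosome 6.

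**Figure D2:**
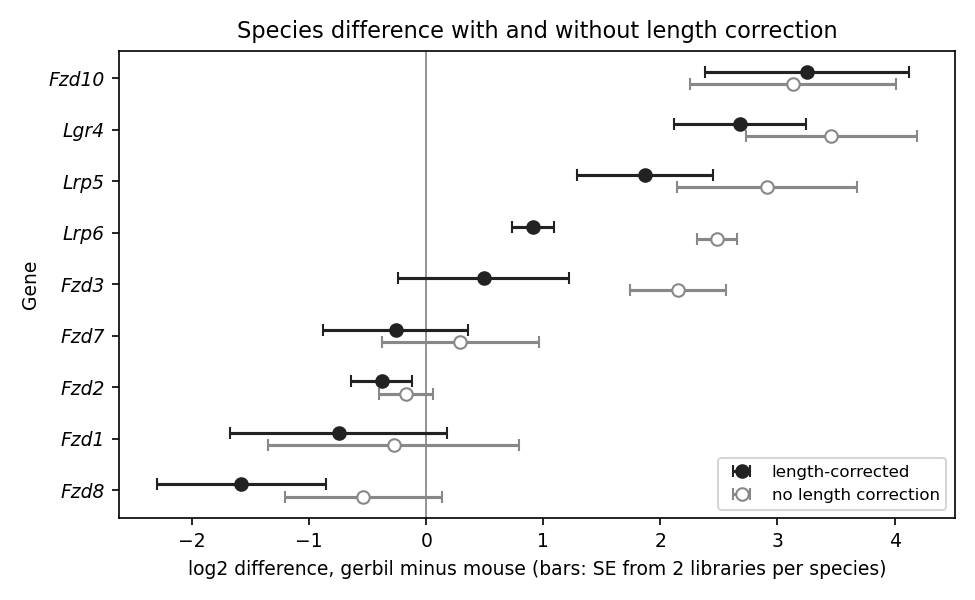
Log2 difference, gerbil minus mouse, of each member measured in both species, with the length correction (filled) and with library medians subtracted only (open); bars are the SE from 2 libraries per species. Fzd10, Lgr4 and Lrp5 lie at 3.25, 2.68 and 1.87 with the correction, and Fzd3 and Lrp6 move by 1.66 and 1.57 between the 2 scales.

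Fzd3 encodes a frizzled receptor best known for planar cell polarity and axon guidance. Its level was 22.2 in mouse PEK, 34.0 in mouse SEK, 212 in gerbil E21 and 181 in gerbil E23. The levels separated the species widely, but on the corrected scale the values were 5.23, 6.69, 6.53 and 6.38 in the same order, and mouse SEK lay above both gerbil libraries. Without mouse SEK Fzd3 was called higher in gerbil (1.25), and without mouse PEK the difference was -0.22. The log2 difference was thus 0.49 ± 0.73 (SE) with the correction and 2.15 ± 0.41 without it, where it was called higher in gerbil. Merged over its annotated transcripts, the exons of Fzd3 hold 12734 bases, the most of the set, and the trend removed there was 1.66. The longest 1016 genes had a median of 8750 bases. Fzd3 (ENSMUSG00000007989.L01) spans positions 65192336 to 65262463 of chromosome 14.

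**Figure D3:**
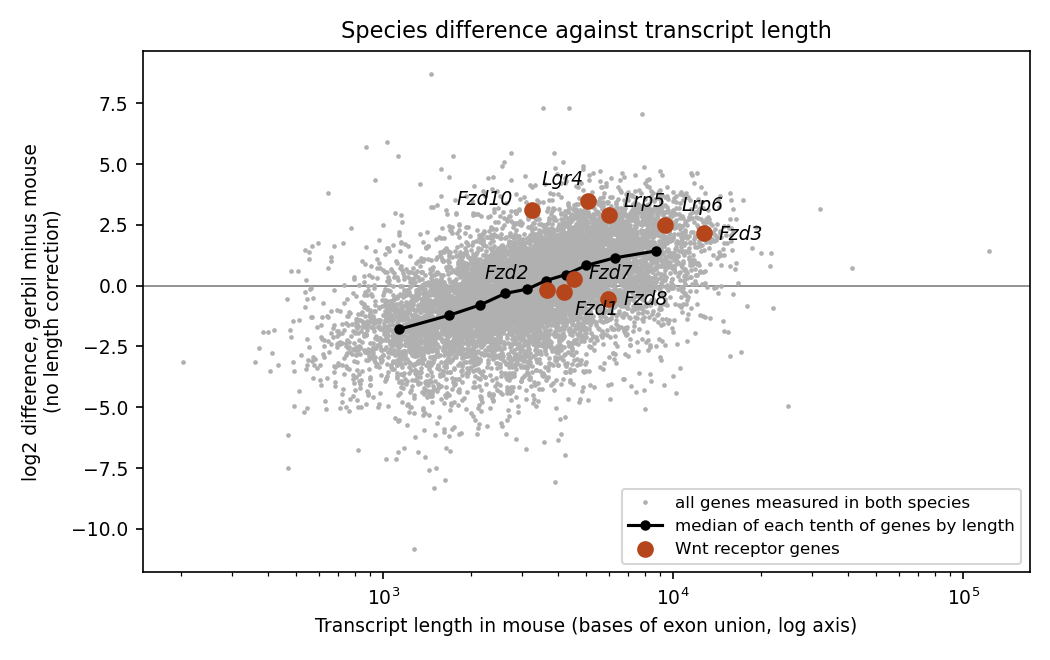
Log2 difference, gerbil minus mouse, without length correction, against mouse exon length (bases merged over annotated transcripts, log axis) for all 10162 genes (grey) and the 9 members (red-brown); the black line joins the medians of 10 equal groups of genes by length. Lrp6 and Fzd3 lie far to the right, where the line is at its highest, while Fzd10 lies well above the line and Fzd8 below it.

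Fzd1, Fzd2 and Fzd7 encode closely related receptors that act in the canonical branch, and none of them was called. The level of Fzd2 was 89.9 in mouse PEK, 87.0 in mouse SEK, 144 in gerbil E21 and 104 in gerbil E23. Both gerbil levels lay above both mouse levels, a log2 difference of 0.46, less than the 0.62 of the median gene on that scale. With library medians subtracted the difference was -0.17, and with the length correction it was -0.38 ± 0.26 (SE), so its sign depends on the scaling. Fzd1 was at 174 in mouse PEK and 33.9 in mouse SEK, and the gerbil values of 105 and 92.9 lay between them. Its log2 difference was -0.75 ± 0.93 and turned on the mouse libraries. Without mouse SEK Fzd1 was called higher in mouse (-1.64), and without mouse PEK the difference was 0.17. It was 0.36 on the printed levels. Fzd7 was at 36.9 and 24.5 in mouse and 91.8 and 36.5 in gerbil, with E23 just below mouse PEK, and its difference was -0.26 ± 0.62. Leaving out gerbil E21 gave -0.91 and leaving out gerbil E23 gave 0.39, and the printed levels gave 0.92. Fzd1 (ENSMUSG00000044674) lies at positions 4753839 to 4758035 of chromosome 5, Fzd2 (ENSMUSG00000050288) at 102604396 to 102608058 of chromosome 11 and Fzd7 (ENSMUSG00000041075) at 59482424 to 59486955 of chromosome 1.

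Fzd8 encodes a frizzled receptor with high affinity for Wnt ligands. Of the 9 members it had the lowest difference as reported, though not with deposited values or without mouse SEK, where that of Fzd1 was lower. Its level was 12 and 12.4 in mouse PEK and SEK, 21.4 in gerbil E21 and 7.82 in gerbil E23, so the levels overlapped. On the corrected scale both mouse values lay above both gerbil values, with a log2 difference of -1.58 ± 0.72 (SE) and a gap of -0.62 that missed the 2-fold rule. It was called higher in mouse when mouse PEK was left out (-1.92) or gerbil E21 was left out (-2.25), and neither when mouse SEK (-1.28) or gerbil E23 (-0.92) was left out. With library medians subtracted only, the difference was -0.54, and on the printed levels it was 0.09. Fzd8 (ENSMUSG00000036904.L01) is a single-exon gene of chromosome 18.

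Fzd6, whose product is known for planar cell polarity, was at 31.3 in mouse PEK and 14.6 in mouse SEK. No gerbil row carried its symbol, but 2 rows without a symbol on the same scaffold were described there as frizzled-6. The first of these rows was at 151 in gerbil E21 and 140 in E23, and the second at 17.5 and 21.7. Their sum, 168 and 162, lay above both mouse values. Taken as Fzd6, an alternative added after the data were seen, the sum gave a log2 difference of 1.66 and a call higher in gerbil. Reads that fit both rows could have been split between them, so the 2 values are uncertain apart. Fzd6 (ENSMUSG00000022297) spans positions 39006280 to 39038186 of chromosome 15.

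The gene models behind the values differ between the tables for the single-exon frizzled genes. Fzd1, Fzd2, Fzd7, Fzd8 and Fzd10 each have 1 exon block in the GRCm38 annotation, with 3250 to 5974 bases. The deposited mouse locus of Fzd8 spans 4715 bases, fewer than the annotated 5974 that the length correction used. The gerbil rows of these 5 genes span 1689 to 2711 bases. Of the 5 spans, 4 are multiples of 3, a length that a coding sequence alone would have. The gerbil row of Lgr4 spans 42780 bases against 97027 in the mouse table, whereas Lrp5 spans 97869 against 101744. How far these models move the levels was not tested.

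The makeup of the receptor pool differed within libraries, a measure that needs no scaling between the tables but does depend on gene length. Among the 6 frizzled members measured in both species, Fzd10 made up 18% (E21) and 13.9% (E23) of the summed gerbil level. Its share of the mouse sum was 3.33% (PEK) and 1.44% (SEK). Both gerbil shares lay several-fold above both mouse shares, and on length-corrected levels they were 22.9% and 18.8% against 2.99% and 1.01%. The pool here is these 6 genes and leaves out Fzd4, Fzd5, Fzd9 and Fzd6. Fzd6 was at 31.3 and 14.6 in mouse, and the gerbil rows described as frizzled-6 summed to 168 and 162. A pool with these genes would give each of the 6 a smaller share. Fzd1 and Fzd2 together were the larger part of the mouse pool, Fzd1 with 50.2% in PEK and 17.4% in SEK and Fzd2 with 26.0% and 44.7%. In gerbil, Fzd1 held 15.0% and 19.0% and Fzd2 20.5% and 21.2%. The pool was thus led by Fzd1 in mouse PEK, by Fzd2 in mouse SEK and by Fzd3 in both gerbil libraries, where Fzd3 held 30.3% and 36.9%. On length-corrected levels Fzd3 kept a narrow lead in E23 (26.3%, with Fzd2 at 25.2%) but not in E21 (20.9%, with Fzd2 at 23.8% and Fzd10 at 22.9%). Its length-corrected shares in mouse, 8.34% and 27.6%, overlapped those in gerbil.

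The R-spondin receptors showed a wide difference in makeup. Lgr4 held 78.7% and 79.3% of the summed level of Lgr4, Lgr5 and Lgr6 in the gerbil libraries, against 29.2% (PEK) and 18.3% (SEK) in mouse. Lgr6 held the larger part in mouse, with 57.9% and 79.6%, against 17.1% and 15.7% in gerbil. The 2 genes thus traded places between the species, and length-corrected levels gave the same order in each library, with Lgr4 at 81.1% and 81.5% in gerbil against 27.2% and 16.3%. Lgr5, best known as a stem cell marker, was the smallest of the 3 in each library, at 12.9% and 2.08% in mouse and 4.21% and 5.0% in gerbil. The level of Lgr6 was 34.8 and 23.2 in mouse and 48.7 and 29.9 in gerbil, and it was called higher in mouse with the length correction (-1.44 ± 0.32, SE) but not without it (-0.22). Lrp5 and Lrp6 divided their sum in overlapping shares: Lrp5 held 38.6% and 20.1% in mouse and 43.5% and 31.2% in gerbil.

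**Figure D4:**
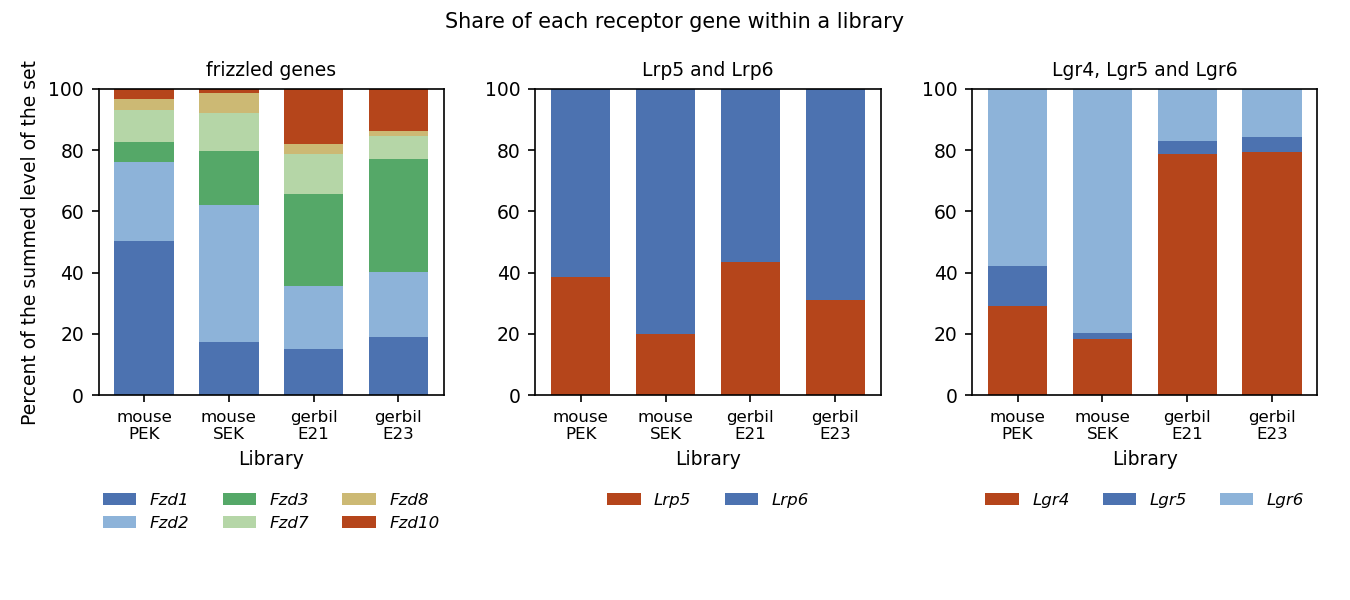
Percent of the summed level within each library (vertical axis) held by each gene of a set, on levels without length correction. The sets are the 6 frizzled members measured in both species, Lrp5 and Lrp6, and Lgr4, Lgr5 and Lgr6. Each bar is 1 library and adds to 100%. Lgr4 holds 78.7% and 79.3% in gerbil against 29.2% and 18.3% in mouse, and the Fzd10 segment is wide only in the gerbil bars.

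The order of the levels also differed between species. In gerbil the means ran from Fzd3 (196 ± 22.5), Lgr4 (187) and Lrp6 (160 ± 10.5) through Fzd2 (124 ± 28.1), Fzd1 (99.1 ± 8.73), Fzd10 and Lrp5 to Fzd7 (64.1 ± 39.1) and Fzd8 (14.6 ± 9.61). The libraries of neighbours in this order overlapped except between Lrp6 and Fzd2 and between Fzd7 and Fzd8. In mouse the order was Fzd1 (104 ± 98.9), Fzd2 (88.4 ± 2.06), Fzd7 (30.7 ± 8.71), Fzd3 (28.1 ± 8.33), Lrp6 (17.8 ± 4.57), Fzd8 (12.2 ± 0.281), Lgr4, Lrp5 and Fzd10. There the neighbours overlapped except between Fzd2 and Fzd7, between Fzd3 and Lrp6 and between Lrp6 and Fzd8. These levels are per length, and the trend between the tables was not removed from them. Fzd8 was last in both gerbil libraries and Fzd10 was last in both mouse libraries.

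Within a species there is 1 library on each side, so differences between libraries carry no replicate check. Mouse PEK and SEK differed more than 2-fold on the corrected scale in 4 of the 9 members. Fzd1 (1.86), Fzd10 (1.57) and Lrp5 (1.01) were higher in PEK, where 8.45% of all genes were, and Fzd3 (-1.46) was higher in SEK, where 7.47% of all genes were. Lgr4, at 0.99, lay just under that fold. On levels without the correction, SEK was the lower mouse library for 7 of the 9 members, the 3 called higher in gerbil among them. On the corrected scale 5 of the 9 were higher in PEK. The median log2 difference there, PEK minus SEK, was 0.04 over the members and 0.03 over all genes. In gerbil, Fzd7 (1.24) and Fzd8 (1.29) were more than 2-fold higher in E21, where 3.67% of all genes were, and 0 members were so in E23, where 6.03% of all genes were. E21 was the higher library in 8 of the 9 members on the corrected scale, Lrp6 being the exception. The median log2 difference, E21 minus E23, was 0.52 over the members and 0.01 over all genes.

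Promoter sequences are shown for members whose mouse start region is in the RefSeq table for GRCm38.p6 and lies outside the deposited locus: Lgr4, which was called higher in gerbil, and Fzd1 and Fzd7, which were not called. Entries were found for 4 members, and the window of Fzd10 overlaps its own locus and is not shown. Each sequence is the 250 bases before the start, 5′ to 3′ on the gene's strand, at chr2:109917397-109917646 (plus strand) for Lgr4, chr5:4758217-4758466 (minus strand) for Fzd1 and chr1:59481897-59482146 (plus strand) for Fzd7. Capitals mark CTTTGA, a core of sites bound by the TCF and LEF factors of the Wnt pathway, and GGGCGG, the GC box, on either strand.
Lgr4: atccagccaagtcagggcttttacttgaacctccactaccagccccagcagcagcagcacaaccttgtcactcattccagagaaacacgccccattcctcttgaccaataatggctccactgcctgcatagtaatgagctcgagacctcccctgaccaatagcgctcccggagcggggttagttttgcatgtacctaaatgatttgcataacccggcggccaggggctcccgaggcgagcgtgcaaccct
Fzd1: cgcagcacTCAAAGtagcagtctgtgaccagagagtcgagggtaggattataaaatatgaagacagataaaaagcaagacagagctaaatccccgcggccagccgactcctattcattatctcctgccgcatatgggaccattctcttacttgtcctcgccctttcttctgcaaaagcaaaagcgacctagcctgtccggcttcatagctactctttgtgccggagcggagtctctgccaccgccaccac
Fzd7: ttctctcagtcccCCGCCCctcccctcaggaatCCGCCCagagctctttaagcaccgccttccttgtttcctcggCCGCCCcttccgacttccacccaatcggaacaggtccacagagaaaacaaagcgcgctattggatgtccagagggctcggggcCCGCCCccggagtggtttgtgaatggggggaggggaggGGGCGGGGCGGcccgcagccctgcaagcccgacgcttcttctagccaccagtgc
Fzd1 holds 1 match to CTTTGA, read as TCAAAG on the other strand, and 13.8% of the 32851 promoters in the table hold one or more in the same window. Fzd7 holds 6 matches to GGGCGG, 2 of which overlap each other, and 32.7% of promoters hold one or more. Lgr4 holds neither set of letters in this window. These matches describe the mouse sequence only and were not set against expression.

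Other genes of the Wnt pathway were taken from lists written with earlier results of these data known. For all list counts below, the share over all genes was 13.3% toward gerbil and 14.7% toward mouse. Without the length correction it was 18.4% and 19.4%. Counts in lists this small describe single genes and not a shift of a list. Among 13 measured genes of Wnt ligands and their secretion the rule gave 0 calls toward gerbil and 2 toward mouse (median log2 difference -0.86). The called genes were Wnt10a (-3.55 ± 0.21, SE) and Wnt6 (-2.68 ± 0.32), both ligands of dental epithelium. Of 10 Wnt antagonists, 0 were called toward gerbil and 2 toward mouse (median -0.31). These were Sfrp4 (-2.39 ± 0.79), which encodes a decoy related to frizzled, and Apcdd1 (-1.92 ± 0.40), which encodes a membrane inhibitor. Without the length correction the Apcdd1 call ended (-0.30) and Notum was called toward mouse (-2.04). Whether the receptors differ from the ligands or antagonists in their shift was not tested.

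Nearer to the receptors, the 9 measured genes of the list of other Wnt receptors held 0 calls toward gerbil and 1 toward mouse, Lgr6, with a median of 0.25. Without the length correction it held 1 toward gerbil, Fzd5 (1.94), and 0 toward mouse, with a median of 0.93. Ryk, an atypical Wnt receptor gene, was at 85.7 and 66.0 in mouse and 229 and 219 in gerbil (1.09 ± 0.17) and met neither criterion. The remaining frizzled genes were low: Fzd4 was at most 0.342 in mouse and 11.6 in gerbil, Fzd5 at most 1.84 and 22.6, and Fzd9 at most 4.35 and 2.21. Of 7 measured genes of R-spondins and receptor turnover, 2 were called toward gerbil and 0 toward mouse (median 0.58), and without the length correction 1 was called toward mouse, Kremen2 (-2.67). Those toward gerbil were Rspo3 (1.69 ± 0.21), an R-spondin gene, and Tmem67 (2.32 ± 0.46), which encodes a protein of the cilium that has a frizzled-like domain. Rspo3 was at 0.502 and 0.104 in mouse and 5.58 and 4.50 in gerbil, so it passed the filter on low values only through gerbil and had to differ. Its call is no support for a direction of the list. Rspo2, another R-spondin gene, was at 39.7 and 6.57 in mouse and 89.5 and 146 in gerbil (2.15 ± 1.18) and met neither criterion, as did Rnf43, the ligase gene (-0.76 ± 0.70).

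Inside the cell, 2 of 15 receptor-proximal genes were called toward gerbil and 1 toward mouse (median -0.13). Without the length correction the counts were 5 and 2 and the median was 0.34, so the list has no direction that holds on both scales. Apc (1.44 ± 0.38), of the beta-catenin destruction complex, and the casein kinase gene Csnk1g3 (1.38 ± 0.14), whose protein family phosphorylates LRP6, were the former, and the casein kinase gene Csnk1e (-2.63 ± 0.29) the latter. Of 12 nuclear factors and targets, 0 were called toward gerbil and 2 toward mouse (median -0.45): Sp5 (-5.33 ± 1.35) and Myc (-2.45 ± 0.25). Without the length correction another gene of this list, Pygo1 (2.23), was called toward gerbil. Of 8 planar cell polarity genes, which work with Fzd3 and Fzd6, 1 was called toward gerbil, Prickle1 (2.40 ± 0.85), and 3 toward mouse (median -0.83). Those called toward mouse were Vangl1 (-1.69 ± 0.26), Celsr3 (-1.56 ± 0.19) and Celsr2 (-1.69 ± 0.28). The levels of Celsr3 were near the floor and ran the other way, at 1.01 and 0.115 in mouse and 1.88 and 1.1 in gerbil. Its call came from the length correction, since its difference was 0.08 without it. Vangl1 levels were also higher in gerbil (49.9 and 44.8 in mouse, 53.4 and 54.1 in gerbil). Without the length correction the list had 2 calls toward gerbil, 0 toward mouse and a median of 0.18.

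**Figure D5:**
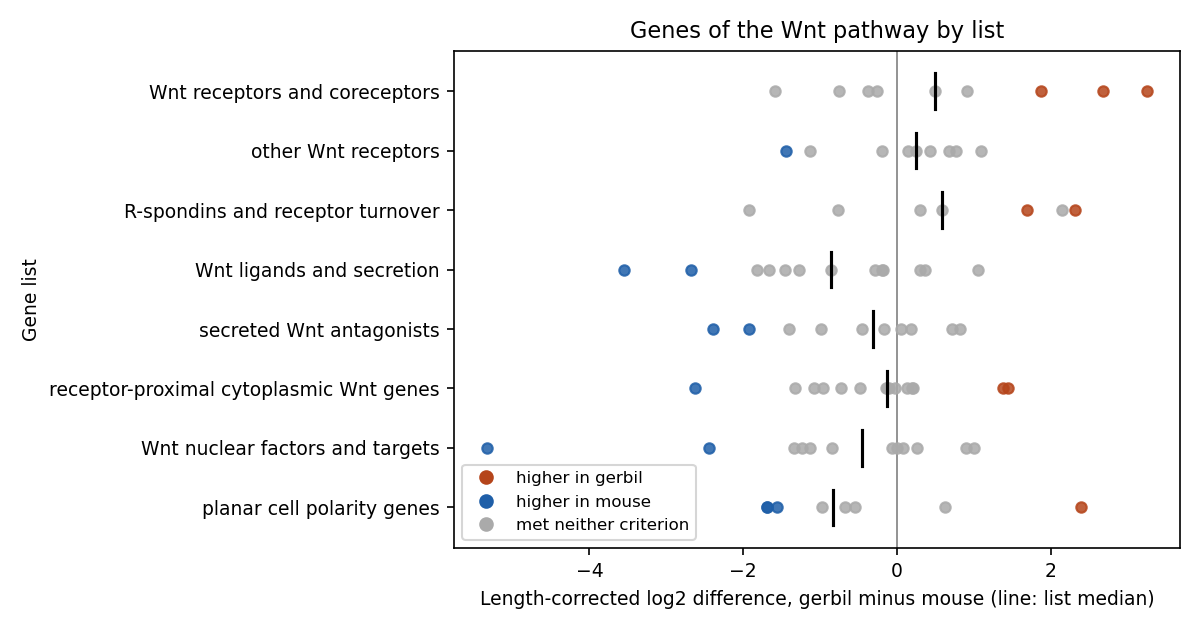
Length-corrected log2 difference, gerbil minus mouse, of each measured gene (points) in 8 lists of Wnt pathway genes, coloured by the 2-fold rule; the black line is the list median. The receptor list has 3 red-brown points and 0 blue ones with a median of 0.49. The ligand list has 0 red-brown and 2 blue ones with a median of -0.86. Of all genes, 13.3% were called higher in gerbil and 14.7% higher in mouse.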

How the data were processed

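RNA from 2 mouse and 2 gerbil samples was sequenced. Mouse values are FPKM per assembled locus (27632 loci), as deposited by the authors per the file headers. Gerbil values are TPM per gene (25745 genes), as deposited by the authors per the file headers. The submitters' processing notes list the builds GRCm38 and mm10 and the tools STAR 2.7.1a, RSEM 1.3.1 and cutadapt 2.8, with no role stated. No source used here names a gerbil build. In the gerbil table, 4 other per-sample columns stayed unused. Columns show the species but no sample number, so each was an unnumbered sample of its group.

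Matching used symbols that occur once per table, whatever their case, except provisional names (LOC, Gm, Rik). Each library was rescaled to 1000000 over matched genes, since these held 13.3% and 11.8% of the gerbil TPM. Values were log2(level + 1), so differences of low genes are understated before the length correction. Kept genes averaged 1 or more over the libraries and have an exon-union length (GENCODE M21 basic). The running median of each library's deviation from the gene mean, along length in 40 bins, was subtracted, which also centres each library, a correction chosen after the trend had been seen. Calls used a 2-fold rule. No test was run between tables normalized separately. Members, lists and alternatives were chosen with earlier results of these data known. All members are named, and from each other list up to 2 called genes per direction with the widest gap, while genes named beyond these (Ryk, Fzd4, Fzd5, Fzd9, Rspo2, Rnf43, Lgr5, Celsr2, Kremen2, Pygo1, Notum, and the markers) were chosen after their values were seen. The procedure was tested on simulated data that held the fitted length trends and 1 noise SD (0.323) for all genes. That test checks the code and cannot show how sound the calls are. Python 3.11.15, numpy 2.4.6, pandas 2.3.3 and matplotlib 3.10.9 were used. The alternatives changed the pseudocount, the filter, the correction, the scaling, the fold and the libraries.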

Additional observations from a re-analysis of the deposited data

How the results depend on the processing

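Lgr4 was called higher in gerbil under all 13 alternatives that refit its value at the 2-fold rule (2.10 to 4.09), and Fzd10 and Lrp5 under 11 of 12 each. Some of these alternatives could hardly end a call. Adding the frizzled-6 rows leaves the values of other genes nearly unchanged, and leaving out 1 library loosens the rule. On the deposited values, with no rescaling, centring or length correction, the median of all genes was -1.09. There the Fzd10 (1.74) and Lrp5 calls ended, Lgr4 and Lrp6 were called higher in gerbil, where 4.19% of all genes were, and Fzd2 (-1.37) was the 1 member called higher in mouse, where 40.6% of all genes were. The count called higher in gerbil was 3 as reported and 5 with no length correction (18.4% of all genes, with 19.4% higher in mouse) or on rescaled levels with neither centring nor length correction, an alternative added after seeing the data. It was 1 with a mean level of at least 10 in each species (10% of all genes), which drops Fzd10 and Lrp5 for their low mouse levels, and 1 with a 4-fold rule (Fzd10; 3.14% of all genes). A 1.5-fold rule called 4 members higher in gerbil, with Lrp6 added (21.1% of all genes), and 1 higher in mouse, Fzd8 (22.2%). Leaving out 1 library gave 3 to 5 members higher in gerbil and 0 to 1 in mouse. The rule is easier to meet with 1 library on a side: 16.6% to 19.3% of all genes were then called higher in gerbil and 18.5% to 20.5% higher in mouse. The 5 came without mouse SEK (17.6% of all genes), which added Fzd3 and Lrp6. The median difference of 0.49 moved to 0.65 with no filter, -0.13 with the minimum of 10, 2.15 with no length correction, 2.79 on rescaled levels, 0.89 with deposited values, 0.03 with GC also removed and 0.70 with the frizzled-6 rows added. It ranged from 0.17 to 1.10 when 1 library was left out, without mouse PEK and without mouse SEK. No paired analysis was possible because the columns carry no sample numbers. Depth is unknown for mouse and was not analysed for gerbil, so how far it limits low values was not tested.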

Other observations

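The genes whose corrected values over the 4 libraries lay nearest to those of Fzd10, of all 10162 measured, were Tsku, Lcat and Clstn2, at Euclidean distances of 0.34, 0.48 and 0.57 on the log2 scale. Among the members, Fzd10 lay nearest to Lrp5 (1.47), Lgr4 to Lrp5 (1.59) and Fzd3 to Lrp6 (1.28), whereas Fzd8 stood farthest from any other member (3.63, to Fzd7). With 4 libraries these distances describe levels and order only.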
